A study of Mus musculus with 12 samples.

Results

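The genes described here are 7 collagen and stromal genes measured by RNA sequencing in mouse peritoneal macrophage cultures, out of 41388 genes in each deposited table. They are Col1a1, Col1a2, Col3a1, Pdgfra, Dcn, Lum and Sparc, and each was found in every library by its Ensembl gene ID. They were picked because collagen counts were higher in the stimulated libraries labelled knockout than in the stimulated control libraries of these same data. That difference is therefore given as a description and without a test. Treatment responses share the same stimulated libraries and are also described without a test. That criterion did not use the vehicle-treated libraries, and the genotypes were tested there. Earlier results of these data were known when the genes were chosen.

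Macrophages were collected from the peritoneal cavity on day 4 after thioglycolate, an irritant that draws monocyte-derived cells into the cavity, and were plated and stimulated on the following day. The stimulated libraries labelled knockout came from cells labelled as PPARγ knockouts made with LysM-Cre and given 250 uM palmitate, a saturated fatty acid, with 100 ng/ml LPS, a bacterial endotoxin, for 8 h. The stimulated control libraries came from cells of LysM-Cre control mice given the same treatment. The vehicle libraries labelled knockout and the vehicle control libraries came from the same kinds of mice, and their cells received BSA-PBS for 8 h. All 4 groups carried LysM-Cre, all cells were collected after thioglycolate, and each group had 3 libraries, 12 in all. LysM-Cre is driven from the lysozyme M locus, which is active mainly in myeloid cells. The labels give no strain, age or sex, and do not say whether replicates came from separate mice, pools or cultures. The p-values therefore measure only the spread between these libraries, which may be technical.

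Fibrillar collagens are the rope-like proteins of connective tissue. Type I collagen is a trimer of the chains made by Col1a1 and Col1a2, and type III collagen, made by Col3a1, lies beside it in soft tissue. Fibroblasts and mesothelial cells of the peritoneal lining make most of this matrix, whereas macrophages are better known for taking up and degrading it. Decorin and lumican bind collagen fibrils and control their width, SPARC binds collagen outside the cell, and PDGF receptor alpha is a growth factor receptor used to mark fibroblasts.

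Each library held 17960457 to 22696385 counts, and 12914 genes passed the filter on low counts, all 7 collagen and stromal genes among them. Levels are CPM (counts scaled to a common library size) after TMM scaling, which sets most genes level between libraries, unless RPKM is named. Pparg, the gene named in the knockout label, went against that label. It measured 111, 91.0 and 95.9 CPM in the vehicle libraries labelled knockout, against 62.3, 61.6 and 61.0 CPM in the vehicle controls, a log2 difference of 0.69 ± 0.11 (SE; edgeR quasi-likelihood adjusted p = 0.00124). The stimulated libraries held 3.59 to 5.04 CPM with the knockout label and 2.86 to 4.14 CPM without it. The counts are sums over all exons of the gene, so they do not show whether a part of it was deleted, and "labelled knockout" is used throughout. Macrophage marker genes summed to between 6160 and 8870 CPM in every library. Of the neutrophil markers, Ly6g had 0 counts and S100a9 at most 2 in a library, whereas S100a8 reached 327, Mmp8 1031 and Csf3r 2600. The T cell markers Cd3e, Cd3d and Cd3g had at most 3 counts, whereas Lck reached 404.

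The genes lie on 5 chromosomes and are given in the coordinates of the deposited tables, on the GRCm38 build. Col1a1 lies at chr11:94936224-94953042, Col1a2 at chr6:4504814-4541543, Col3a1 at chr1:45311538-45349706 and Pdgfra at chr5:75152291-75198204, all on the plus strand. Dcn at chr10:97479500-97518162 and Lum at chr10:97565501-97572703 neighbour each other on the plus strand, and Sparc lies at chr11:55394500-55420080 on the minus strand. Their values are sums over annotated exons. The only annotated gene whose exons overlapped those of any of the 7 was Mir7025 within Pdgfra, which shared 30 bases and had 0 counts.

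Promoter sequences from RefSeq (GRCm38.p6) matched 4 of the 7 genes, namely Col1a2, Col3a1, Pdgfra and Sparc. The 250 bases before the RefSeq start of Col3a1 (chr1:45311288-45311537, plus strand) and of Pdgfra (chr5:75152001-75152250, plus strand) are shown because both genes, a collagen and the receptor, were higher in the stimulated libraries labelled knockout, and because GENCODE M21 annotates no exon in these windows. They are written 5′ to 3′, and capitals mark a match to the TATA box letters.
Col3a1: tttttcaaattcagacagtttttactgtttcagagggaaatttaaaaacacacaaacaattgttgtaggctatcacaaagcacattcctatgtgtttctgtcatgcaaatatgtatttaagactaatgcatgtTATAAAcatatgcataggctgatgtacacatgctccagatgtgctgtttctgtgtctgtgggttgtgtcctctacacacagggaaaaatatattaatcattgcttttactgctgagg
Pdgfra: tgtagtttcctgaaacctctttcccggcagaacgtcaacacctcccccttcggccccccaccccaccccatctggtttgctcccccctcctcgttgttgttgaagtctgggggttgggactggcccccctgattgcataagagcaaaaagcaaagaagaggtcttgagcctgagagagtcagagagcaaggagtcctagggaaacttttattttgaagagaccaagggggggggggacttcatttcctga
Both strands were searched. The TATA box was searched as TATAAA or, on the other strand, as TTTATA. The CCAAT box was searched as CCAAT or its complement ATTGG, and the GC box as GGGCGG or its complement CCGCCC. No motif overlaps another in the windows shown. Among 32851 RefSeq promoter windows of the same length, 12.4% held the TATA box letters, 33.8% the CCAAT letters and 32.7% the GC box letters. The Col3a1 window held the TATA box letters once, beginning 117 bases before the start, and neither of the other motifs. The Pdgfra window held none of the 3 motifs. These are letter matches only.

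Collagen RNA made up a small part of the transcriptome of these cultures, and the other stromal genes ranged from rare to abundant. Per length of exon, averaged over the 12 libraries, Sparc measured 27.7 RPKM, above 86.6% of the genes tested, and Dcn 25.3 RPKM, above 85.6%. Col1a1 followed at 7.39 RPKM (above 67.0%) and Col1a2 at 3.06 RPKM (above 50.1%). Pdgfra at 1.49 RPKM and Col3a1 at 1.29 RPKM were above 36.1% and 33.3% of the genes, and Lum at 0.351 RPKM was above 13.3%. The order depends in part on the lengths in the deposited tables. Those lengths were 2.27 times the longest coding transcript in GENCODE M21 for Col1a2 and 1.76 times for Col3a1, against 1.11 times for Col1a1, so the RPKM of Col1a2 and Col3a1 may be too low by comparison. Fewer stromal cells and less of each RNA per cell cannot be told apart in bulk RNA.

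**Figure D1:**
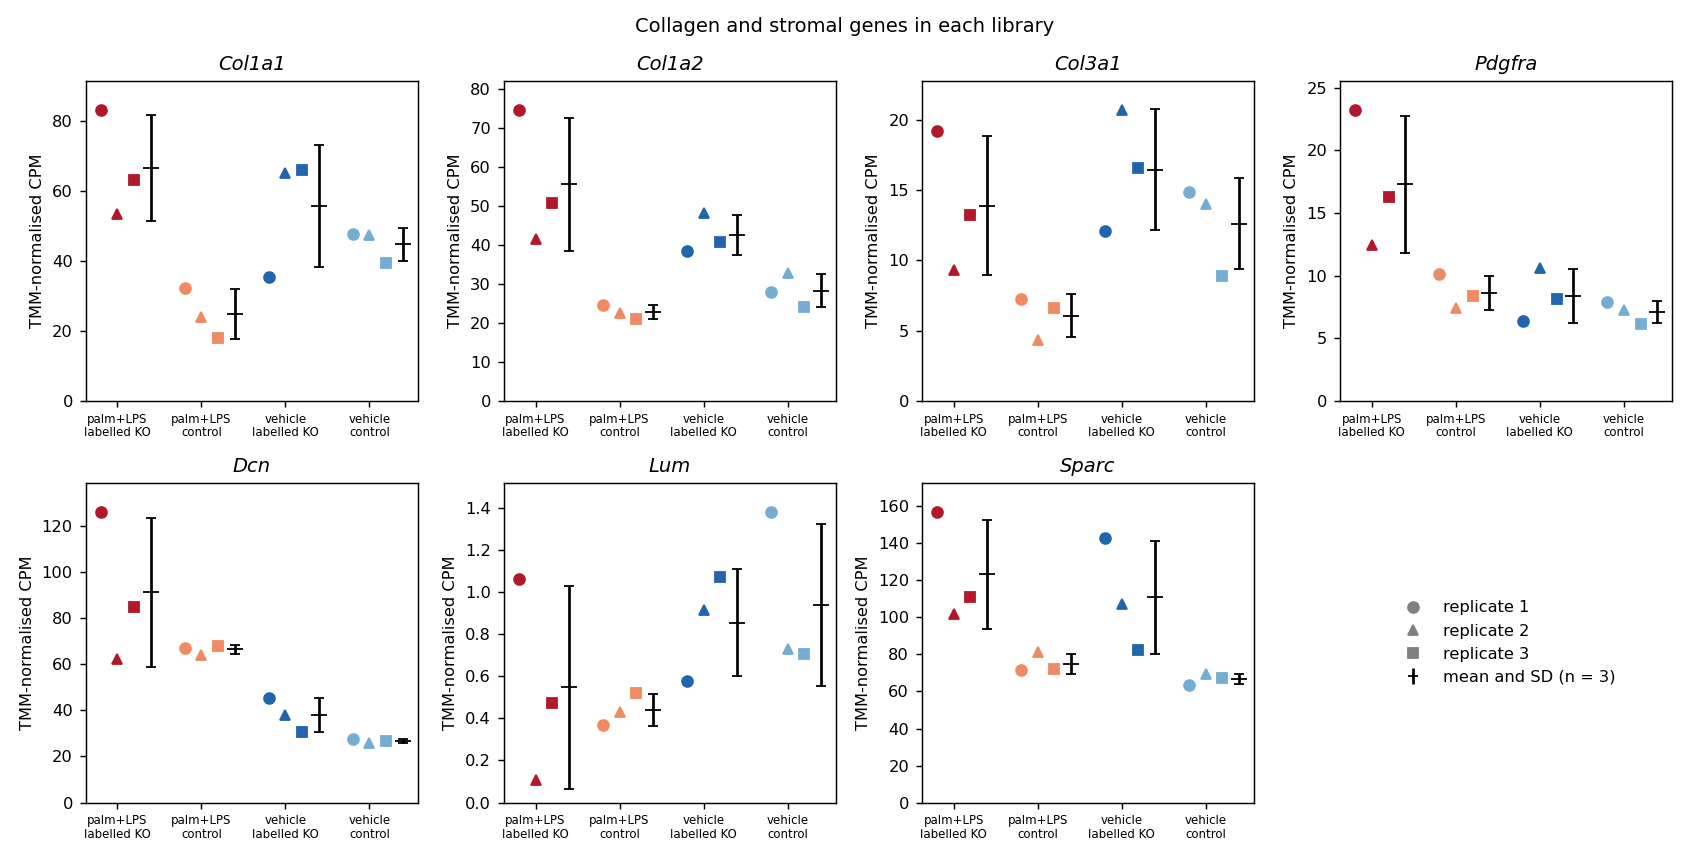
Each panel plots 1 gene, with TMM-normalised CPM on a linear axis from 0 and the 4 groups from left to right. Points are libraries (circle, triangle and square for replicates 1, 2 and 3) and black bars are the mean and SD (n = 3). Replicate 1 is the highest of the stimulated libraries labelled knockout in all 7 panels.

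In stimulated cultures the fibrillar collagens were higher with the knockout label. Col1a1, the main chain of type I collagen, measured 83.1, 53.5 and 63.2 CPM in the stimulated libraries labelled knockout, against 32.3, 24.0 and 18.0 CPM in the stimulated controls. Every library labelled knockout was above every control, and the mean was 2.69 times higher (log2 difference 1.43 ± 0.25, SE). Col1a2, the partner chain, measured 74.6, 41.5 and 50.7 CPM with the knockout label, against 24.7, 22.6 and 21.0 CPM in the stimulated controls. The 3 controls lay close together and well below the lowest library labelled knockout, with a mean 2.44 times higher in the labelled knockout (1.29 ± 0.18). Col3a1, the type III chain, measured 19.2, 9.32 and 13.2 CPM with the knockout label, against 7.26, 4.37 and 6.58 CPM in the stimulated controls. The nearest libraries were only 9.32 and 7.26 CPM apart, and the log2 difference was 1.19 ± 0.29.

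The fibril-binding proteoglycans gave smaller log2 differences in the same comparison. Dcn, which encodes decorin, measured 126, 62.4 and 84.9 CPM in the stimulated libraries labelled knockout, against 67.1, 64.1 and 67.9 CPM in the stimulated controls. The second labelled-knockout library lay below all 3 controls, so the groups overlapped, and the log2 difference was 0.46 ± 0.19. Lum, which encodes lumican, had 18, 2 and 9 counts (0.108 to 1.06 CPM) with the knockout label, against 7, 8 and 10 counts (0.368 to 0.518 CPM) in the stimulated controls. At such counts the log2 difference was smaller than its SE (0.28 ± 0.58), and without replicate 1 of the labelled knockout the value was -0.58.

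Sparc, the collagen-binding matricellular protein, measured 157, 102 and 111 CPM in the stimulated libraries labelled knockout, against 71.6, 81.1 and 72.2 CPM in the stimulated controls. All 3 lay above all controls, with a log2 difference of 0.72 ± 0.17. Pdgfra, the receptor for PDGF on fibroblasts, measured 23.2, 12.4 and 16.3 CPM with the knockout label, against 10.1, 7.39 and 8.34 CPM in the stimulated controls. Its groups did not overlap and its log2 difference was 1.00 ± 0.21. In all, the groups did not overlap for 5 of the 7 genes, each of them higher in the labelled knockout, beside 22.4% of all tested genes higher without overlap. The genes were chosen on this difference, so nothing is read from the count.

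A single library carried part of the difference. Replicate 1 of the stimulated libraries labelled knockout was the highest of its group for all 7 genes, replicate 3 the middle and replicate 2 the lowest for all 7. Without replicate 1 the log2 differences were 1.24 for Col1a1, 1.02 for Col1a2, 0.89 for Col3a1, 0.74 for Pdgfra, 0.50 for Sparc and 0.15 for Dcn. Without replicate 2 of the labelled knockout instead, Dcn was at 0.67 and Col3a1 at 1.41. Within this group, the summed levels of the other collagen, collagen processing, matrix, fibroblast, smooth muscle and mesothelial lists described further on were also highest in replicate 1. So were those of macrophage markers, neutrophil markers (174 CPM, against 144 and 147 CPM in replicates 2 and 3), mast cell markers (10.4, against 5.26 and 6.52 CPM), mitochondrially encoded genes (3960, against 3820 and 3650 CPM) and the PDGF, TGF-β and collagen receptor lists. The sums of B cell, T and NK cell, endothelial and ribosomal protein genes were not. What sets that library apart was not tested.

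Without stimulation, Sparc was the only gene of the 7 for which the genotype difference passed the test. Sparc measured 143, 107 and 82.6 CPM in the vehicle libraries labelled knockout, against 63.5, 69.2 and 67.3 CPM in the vehicle controls. All 3 libraries labelled knockout were above the controls, which lay within a narrow range, and the difference passed (0.73 ± 0.17 log2, edgeR quasi-likelihood adjusted p = 0.0246). This is 1 of 7 genes called, beside 3.80% of all tested genes called in this comparison, with 2.11% of all genes higher and 1.69% lower. The call did not survive in a fit of the 2 vehicle groups alone (adjusted p = 0.0904) or without vehicle control replicate 1, 2 or 3 (0.122, 0.0805 and 0.0843). It was also lost without replicate 1 or 2 of the vehicle libraries labelled knockout (0.243 and 0.0601). Over all alternatives the edgeR and DESeq2 adjusted p for Sparc ran between 2.05e-10 and 0.243.

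Col1a2 measured 38.5, 48.3 and 40.7 CPM in the vehicle libraries labelled knockout, against 28.0, 32.7 and 24.2 CPM in the vehicle controls. The groups did not overlap, yet the difference of 0.59 ± 0.17 log2 missed the threshold (edgeR quasi-likelihood adjusted p = 0.0781) and passed it with the DESeq2 Wald test (adjusted p = 0.0295). Dcn measured 45.2, 37.9 and 30.6 CPM with the knockout label, against 27.4, 25.8 and 26.7 CPM in the vehicle controls, again without overlap, and did not pass (0.51 ± 0.19, edgeR adjusted p = 0.198). With Sparc these made 3 of 7 genes whose vehicle libraries were all higher with the knockout label, beside 10.5% of all genes.

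The other vehicle values overlapped between genotypes. Col1a1 measured 35.5, 65.2 and 66.1 CPM in the vehicle libraries labelled knockout, against 47.8, 47.3 and 39.4 CPM in the vehicle controls (0.31 ± 0.24 log2, edgeR adjusted p = 0.524). Replicate 1 with the knockout label was below all 3 controls and the other two were above them. Col3a1 measured 12.1, 20.7 and 16.6 CPM with the knockout label, against 14.9, 14.0 and 8.89 CPM in controls (0.38 ± 0.26, edgeR adjusted p = 0.480). Pdgfra measured 6.34, 10.6 and 8.12 CPM with the label, against 7.88, 7.27 and 6.11 CPM in controls (0.24 ± 0.22, edgeR adjusted p = 0.599). Lum had 11, 23 and 26 counts with the knockout label, against 37, 19 and 14 counts in controls (-0.13 ± 0.42, edgeR adjusted p = 0.899), and its sign turned when replicate 1 of either vehicle group was left out. A missed threshold does not show that the genotypes were alike for these genes.

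**Figure D2:**
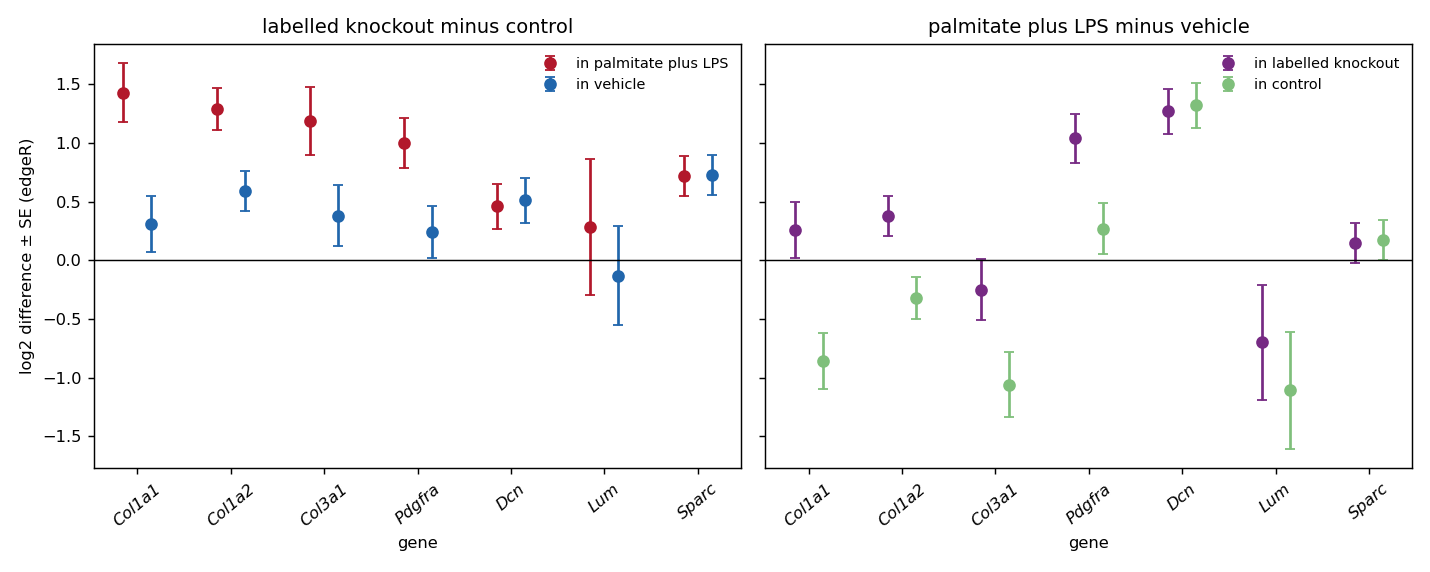
Points are log2 differences of each gene with standard errors from edgeR, labelled knockout minus control on the left and palmitate plus LPS minus vehicle on the right. The genotype difference of Col1a1 is 1.43 in stimulated and 0.31 in vehicle libraries, whereas those of Sparc are 0.72 and 0.73.

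Palmitate plus LPS went with different shifts for the collagens and for decorin. In control cells the 3 stimulated libraries had less Col1a1 than the 3 vehicle libraries (24.7 ± 7.18 against 44.9 ± 4.69 CPM, mean ± SD, n = 3) and less Col3a1 (6.07 ± 1.51 against 12.6 ± 3.25 CPM), with log2 differences of -0.86 ± 0.24 and -1.06 ± 0.28 and no overlap. Col1a2 was 22.8 ± 1.83 CPM stimulated and 28.3 ± 4.23 CPM in vehicle and overlapped (-0.32 ± 0.18). In cells labelled knockout, Col1a1 was 66.6 ± 15.1 CPM stimulated and 55.6 ± 17.4 CPM in vehicle, and Col3a1 13.9 ± 4.96 CPM stimulated and 16.4 ± 4.32 CPM in vehicle. The libraries overlapped for both, and for Col1a2, with log2 differences of 0.26 ± 0.24 for Col1a1, -0.25 ± 0.26 for Col3a1 and 0.38 ± 0.17 for Col1a2.

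Dcn was higher with palmitate plus LPS in both genotypes. It averaged 91.2 ± 32.3 CPM stimulated and 37.9 ± 7.34 CPM in vehicle with the knockout label (1.27 ± 0.19 log2), and 66.3 ± 2.01 CPM stimulated and 26.6 ± 0.788 CPM in vehicle in controls (1.32 ± 0.19). No stimulated library overlapped the vehicle ones. Pdgfra was 17.3 ± 5.45 CPM stimulated and 8.35 ± 2.13 CPM in vehicle with the knockout label (1.04 ± 0.21), without overlap, but 8.61 ± 1.38 CPM stimulated and 7.09 ± 0.899 CPM in vehicle in controls, which overlapped (0.27 ± 0.22). Sparc stayed within 0.17 log2 of its vehicle level in each genotype, and Lum had lower means with treatment in both (-0.70 ± 0.49 with the knockout label and -1.11 ± 0.50 in controls).

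Treatment values also depend on scaling, since scaling to the total count moved the median of all genes to -0.42 log2 with the knockout label and -0.38 in controls, against -0.06 and -0.05 with TMM. With total-count scaling the log2 differences became -0.13 for Col1a1 and -0.20 for Sparc with the knockout label, and -0.06 for Pdgfra and -0.16 for Sparc in controls, so their directions are not settled. Dcn kept its direction with 0.90 and 0.99, and Pdgfra with the knockout label with 0.66.

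The difference between the treatment responses (labelled knockout minus control) was 1.12 ± 0.34 log2 for Col1a1, 0.70 ± 0.24 for Col1a2, 0.81 ± 0.38 for Col3a1 and 0.76 ± 0.31 for Pdgfra. For Dcn it was -0.05 ± 0.27, for Sparc -0.02 ± 0.24 and for Lum 0.41 ± 0.71. These values hold the stimulated difference on which the genes were chosen, so they are not tested; 8.05% of all genes were called in this contrast. Those of the 3 collagens and Pdgfra were all positive, also without any 1 library, and those of Dcn, Sparc and Lum changed sign with the library left out.

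**Figure D3:**
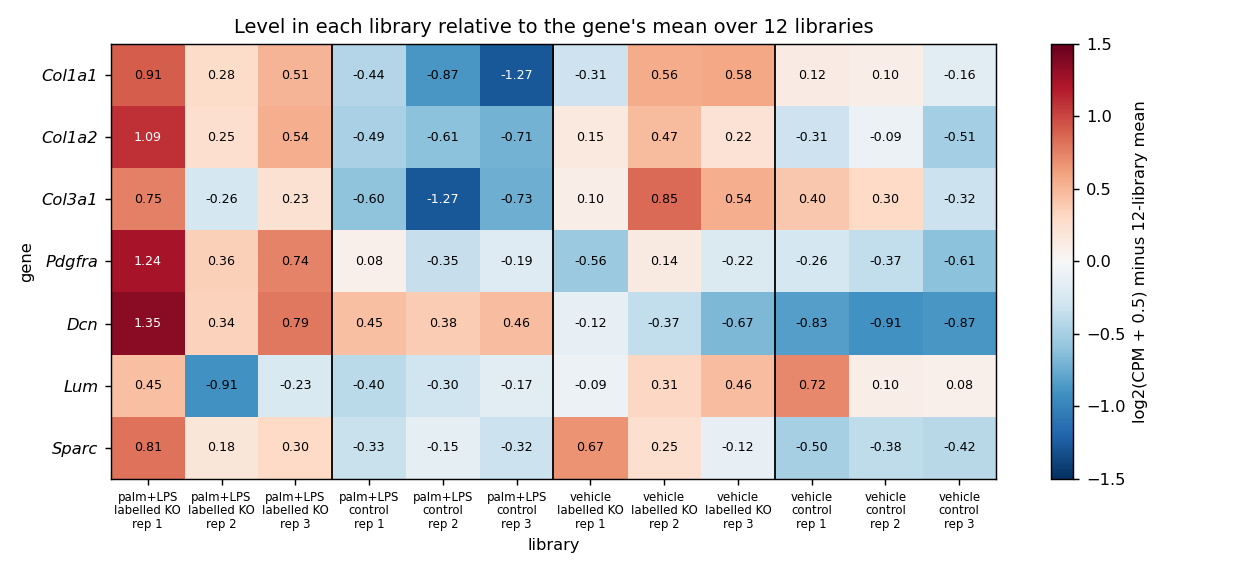
Colours and printed numbers give log2(CPM + 0.5) of each gene (rows) in each library (columns) minus its mean over the 12 libraries. Stimulated controls are below the mean for all 3 collagens (-0.44 to -1.27), and vehicle libraries are lowest for Dcn (-0.12 to -0.91).

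The 7 genes did not vary as a block. Between the lowest and the highest library, Sparc spanned 2.48-fold, the collagens 3.55-fold (Col1a2) to 4.74-fold (Col3a1), Dcn 4.89-fold and Lum 12.7-fold. In TMM-scaled CPM, 5 genes were at their highest in replicate 1 of the stimulated libraries labelled knockout, whereas Col3a1 peaked in vehicle replicate 2 with the knockout label and Lum in vehicle control replicate 1. In the deposited CPM, scaled to total counts, 3 genes peaked in that stimulated library. Replicate 1 of the vehicle libraries labelled knockout divided the genes, being the highest of its group for Dcn and Sparc and the lowest for the other 5. That library also had the highest summed ribosomal protein genes, 5930 CPM, where the vehicle controls had 3790 to 4230 CPM. Replicates 2 and 3 of its own group had 3950 and 3920 CPM. Its macrophage marker sum (8870 CPM) and mitochondrially encoded sum (7970 CPM) were also the highest of the 12 libraries. The type I chains did not keep a fixed ratio, with 0.855 to 1.71 Col1a1 counts for each Col1a2 count.

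Once group means were subtracted, the Pearson correlation with the mean log2 level of the 3 collagens across the 12 libraries was 0.966 for Pdgfra, 0.717 for Lum, 0.407 for Dcn and 0.068 for Sparc. Without that subtraction it was 0.59 for Pdgfra, 0.583 for Sparc, 0.396 for Lum and 0.04 for Dcn, and without replicate 1 of the stimulated labelled knockout 0.39 for Pdgfra and -0.346 for Dcn. These are descriptions over libraries that share groups and scaling. Among 11011 other genes averaging at least 1 CPM, the 10 whose log2 levels, with no group means subtracted, correlated best with the collagens over the 12 libraries were Grb10 (r = 0.939), Prex1 (0.927), Flrt2 (0.922), Cdh3 (0.903), Fn1 (0.901), Aebp1 (0.899), Nudcd3 (0.897), Capn5 (0.896), Ccdc80 (0.894) and Pde7b (0.886). Fn1 encodes fibronectin and Cdh3 P-cadherin. Of these 10, 5 were again among the top 10 without replicate 1 of the stimulated labelled knockout, and 0 when group means were subtracted.

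Other matrix genes were also higher in the stimulated libraries labelled knockout. Over all genes, 16.1% of those tested were called in this comparison, 1293 genes higher and 788 (6.10%) lower. Scaling to the total count turned that split into 841 higher and 1578 lower and moved the median of all genes to -0.09 log2. Among 21 tested proteoglycan and glycoprotein genes outside the 7, 11 rose and 0 fell (edgeR quasi-likelihood, adjusted p under 0.05), or 52.4% called beside the 16.1% of all genes, with a median of 1.00 log2, where the median of all genes was -0.01. Thbs1, encoding the adhesive protein thrombospondin 1, averaged 72.6 ± 12.4 CPM in the stimulated libraries labelled knockout and 21.0 ± 1.45 CPM in the stimulated controls (1.79 ± 0.23 log2, edgeR adjusted p = 0.000137). Vcan, the proteoglycan versican, averaged 23.8 ± 1.07 CPM with the label and 8.87 ± 0.219 CPM in controls (1.42 ± 0.16). Fbln2, an extracellular matrix fibulin, averaged 34.7 ± 9.09 CPM with the label and 14.6 ± 0.931 CPM in controls (1.25 ± 0.17). Tnc, tenascin C, averaged 5.36 ± 1.94 CPM with the label and 1.37 ± 0.0779 CPM in controls (1.95 ± 0.28). Vcan is also known from activated monocytes and macrophages. The count of 11 was 8 without replicate 1 of the stimulated labelled knockout and 7 without replicate 3 of the stimulated controls.

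Of 11 other collagens tested, 18.2% were called, near the 16.1% of all genes. The 2 that rose were Col5a2 of the fibrillar type V collagen (1.19 ± 0.24) and Col6a1 of the microfibrillar type VI collagen (0.82 ± 0.18), and 0 fell. Col4a2 of basement membrane collagen was at -0.43 ± 0.19 and did not pass. Of 20 genes for collagen folding, modification and crosslinking, 4 rose and 2 fell, or 30.0% called beside 16.1%. Serpinh1, the collagen chaperone HSP47, averaged 97.2 ± 27.8 CPM with the label and 51.9 ± 0.359 CPM in controls (0.90 ± 0.16). The prolyl hydroxylase subunit P4ha1 averaged 255 ± 7.64 CPM with the label and 147 ± 1.89 CPM in controls (0.79 ± 0.08). Plod3, a lysyl hydroxylase, rose by 0.53 ± 0.08 log2. Lox, the enzyme that crosslinks collagen, fell to 5.57 ± 0.968 CPM in the labelled knockout, against 10.8 ± 1.87 CPM in the stimulated controls (-0.95 ± 0.16).

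**Figure D4:**
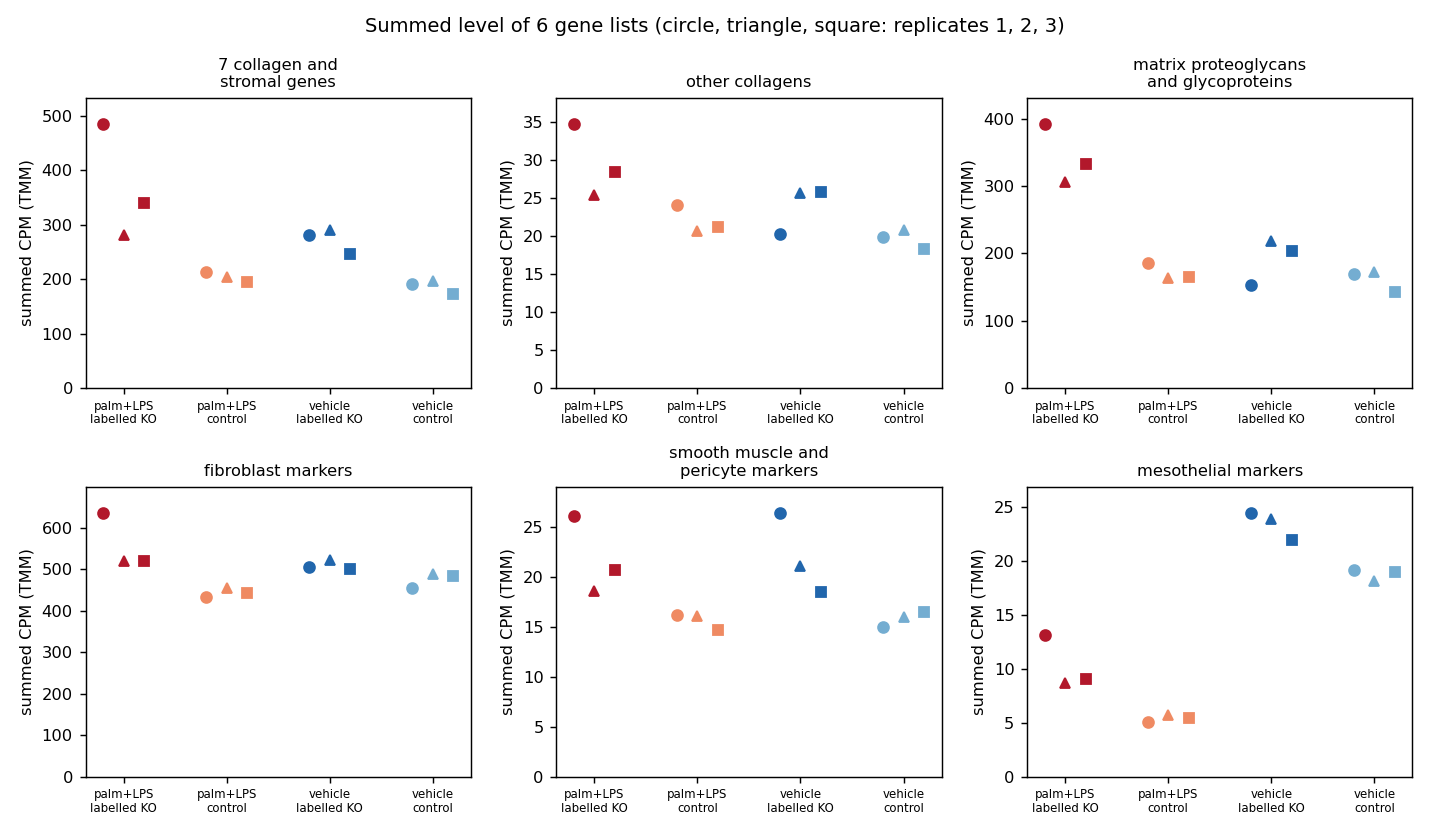
Each panel plots the summed TMM-normalised CPM of a gene list in every library on a linear axis from 0. Matrix genes sum to 306 to 392 CPM in the stimulated libraries labelled knockout and 164 to 186 CPM in the stimulated controls, and mesothelial markers are lowest in the stimulated libraries. The fibroblast marker sum is mostly Fstl1 and Gsn.

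Some markers of stromal cells were called in the same comparison, and several defining ones were barely detected. Of 9 tested fibroblast markers, 5 did not pass, 1 fell and 3 rose with the knockout label in stimulated cells, or 44.4% called beside 16.1% of all genes. Those that rose were Fstl1 (445 ± 67.0 CPM, against 306 ± 9.12 CPM in controls), the mesenchymal transcription factor gene Prrx1 (1.94 ± 0.485, against 0.913 ± 0.206 CPM in controls) and the chemokine gene Cxcl12 (3.63 ± 0.807, against 2.22 ± 0.491 CPM in controls). Gsn, the actin-severing protein gelsolin, fell by 0.36 ± 0.07 on the log2 scale. The count of 3 was 1 without replicate 1 or without replicate 3 of the stimulated labelled knockout. High shares were not limited to stromal lists. In the same comparison 55.6% of 9 macrophage markers (3 rose, 2 fell) and 50.0% of 6 neutrophil markers (2 rose, 1 fell) were called. Of 4 mast cell markers 25.0% were called, and of 5 B cell markers 0. The fibroblast list summed to 520 to 636 CPM in the stimulated libraries labelled knockout, 434 to 454 CPM in the stimulated controls, 502 to 523 CPM in the vehicle libraries labelled knockout and 456 to 488 CPM in the vehicle controls. Most of that sum was Fstl1 and Gsn, which went apart with treatment, so it says little about the other markers. The treatment responses of Fstl1 were 1.33 ± 0.09 log2 with the knockout label and 1.17 ± 0.09 in controls. Those of Gsn were -1.96 ± 0.07 with the label and -1.65 ± 0.07 in controls. Thy1 had at most 3 counts in a library and Dpt at most 14, both below the filter. Pdgfrb, the other PDGF receptor, averaged 15.0 ± 1.62 CPM in the stimulated labelled knockout and 20.8 ± 2.92 CPM in the stimulated controls. In vehicle it averaged 0.593 ± 0.468 CPM with the label and 0.378 ± 0.0654 CPM in controls.

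Some mesothelial markers were higher with the knockout label in stimulated cells, and nearly all fell with palmitate plus LPS. Of 11 tested, 4 rose with the knockout label in stimulated cells and 0 fell, or 36.4% called beside 16.1% of all genes. They were Cdh3 (2.69 ± 0.730, against 0.983 ± 0.202 CPM in controls), the uroplakin Upk3b (1.65 ± 0.491, against 0.743 ± 0.259 CPM in controls), the keratin Krt19 (1.75 ± 0.556, against 0.881 ± 0.0786 CPM in controls) and Gpm6a. The count of 4 was 2 without replicate 1 or 2 of the stimulated labelled knockout or without replicate 2 of the stimulated controls, and 1 without replicate 1 or 3 of those controls. In vehicle 0 of 11 passed in edgeR and 0 with DESeq2, and 2 had an unadjusted p under 0.05. With treatment, 9 of 11 fell with the knockout label and 11 of 11 fell in controls, beside 35.6% and 34.7% of all genes called lower in these comparisons. Their sum was 8.67 to 13.1 CPM in the stimulated libraries labelled knockout, 5.05 to 5.72 CPM in the stimulated controls, 21.9 to 24.4 CPM in the vehicle libraries labelled knockout and 18.1 to 19.1 CPM in the vehicle controls. The part of fibroblast or mesothelial RNA in the collagen values was not tested.

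Of 5 smooth muscle and pericyte markers 0 passed in edgeR in the stimulated genotype comparison (2 at an unadjusted p under 0.05, and 1 with DESeq2), with a median of 0.55 log2, and their sum was 18.6 to 26.1 CPM with the knockout label and 14.7 to 16.2 CPM in controls. Of 4 tested endothelial markers 1 rose and 0 fell, or 25.0% called beside 16.1% of all genes. The gene that rose was Kdr, a VEGF receptor gene (8.65 ± 0.883, against 2.36 ± 0.435 CPM in controls). Cdh5, the endothelial cadherin, was near 1 CPM in both groups and did not pass, nor did Eng (0.47 ± 0.19 log2) and Esam (-0.56 ± 0.27). Pecam1, Cldn5 and Erg were below the filter. The endothelial list summed to 53.7 to 62.5 CPM with the knockout label and 34.2 to 45.0 CPM in controls, most of it Eng. Pooled, the other collagens, processing, matrix, fibroblast and smooth muscle lists held 66 tested genes, of which 20 rose and 3 fell, or 34.8% called beside 16.1% of all genes, with a median of 0.55 log2. This pool was formed after its parts had been seen. Without replicate 1 of the stimulated labelled knockout, 14 were called higher and 2 lower. In vehicle 4.55% of the 66 were called, near the 3.80% of all genes. The 3 that rose, with 0 that fell, were Serpinh1 (0.63 ± 0.16), Fstl1 (0.39 ± 0.09) and Serpinf1 (0.99 ± 0.24), which encodes the secreted factor PEDF, beside a median of 0.36 log2. That vehicle count was 6 with DESeq2, 0 in a fit of the vehicle groups alone and 0 without any 1 of the vehicle controls. It was 8, 1 and 5 without vehicle replicate 1, 2 or 3 of the labelled knockout, and 5 without stimulated replicate 1.

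Markers of other cells and measures of RNA makeup were summed in the same stimulated groups. Mitochondrially encoded genes summed to 3650 to 3960 CPM with the knockout label and 4320 to 5110 CPM in controls, without overlap. Ribosomal protein genes summed to 4590 to 4800 CPM with the knockout label and 4750 to 5250 CPM in controls. Neutrophil markers summed to 144 to 174 CPM with the knockout label and 107 to 117 CPM in controls, most of it Csf3r (136 ± 14.3 CPM with the label and 90.6 ± 3.78 CPM in controls). The list had a median of -0.49 log2 with 2 of 6 tested genes positive. Csf3r and Mmp8 rose, whereas S100a8 fell to 6.93 ± 0.332 CPM with the label, against 15.0 ± 2.55 CPM in controls (-1.11 ± 0.17, edgeR adjusted p = 0.000367). B cell markers summed to 12.2 to 16.7 CPM with the label and 15.6 to 20.9 CPM in controls. Their part in the collagen values was not tested.

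The PDGF ligand genes were measured beside their receptor. Pdgfb, which encodes a PDGF chain, averaged 2.69 ± 0.357 CPM in the stimulated libraries labelled knockout and 4.14 ± 0.276 CPM in the stimulated controls (-0.62 ± 0.17 log2, edgeR adjusted p = 0.0207). In vehicle it averaged 8.03 ± 1.31 CPM with the knockout label and 3.85 ± 0.311 CPM in controls (1.06 ± 0.14, edgeR adjusted p = 0.000334). Pdgfa, a ligand of PDGF receptor alpha, averaged 17.1 ± 1.42 CPM in the stimulated labelled knockout and 17.8 ± 2.33 CPM in the stimulated controls and did not pass. Pdgfc fell in vehicle to 0.992 ± 0.144 CPM with the knockout label, against 2.16 ± 0.478 CPM in controls.

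Among 17 genes of the TGF-β pathway, the main inducer of collagen synthesis, 4 rose and 1 fell with the knockout label in stimulated cells, or 29.4% called beside 16.1% of all genes. The ligand gene Tgfb1 fell by 0.67 ± 0.17 on the log2 scale. The receptor Tgfbr2 (0.55 ± 0.11) and the latent TGF-β binding protein Ltbp1 (0.85 ± 0.21) were among those that rose. In vehicle 3 rose and 0 fell, or 17.6% beside 3.80% of all genes, among them Tgfbi, a secreted matrix protein, at 36.0 ± 2.57 CPM with the label and 16.0 ± 1.64 CPM in controls (1.17 ± 0.12). Of 6 receptors for collagen or its uptake, 3 rose in stimulated cells (50.0%, beside 16.1% of all genes), the collagen-activated kinase Ddr2 (1.25 ± 0.23), the scavenger receptor Stab1 (0.65 ± 0.13) and the inhibitory receptor Lair1 (0.26 ± 0.08).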

How the data were processed

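Per the submitters' processing notes, the authors used bcl2fastq 2.0, STAR 2.0.4b, Subread, featureCounts 1.45 and the GRCm38 build; for strand use, options and annotation release, the setting was not given in the sources used here. Per the labels' protocols, total RNA went over Ambion columns into a SMARTer v1 preparation (Clontech). The deposited tables give the authors' raw count per gene, a CPM scaled to library total counts, and an RPKM that further divides by exon length. Gene symbols were matched for 40254 of 41388 IDs.

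Deposited counts were fitted in edgeR 4.0.16 (R 4.3.3) with filterByExpr, TMM scaling and robust quasi-likelihood, with 1 mean for each of 4 groups over 12 libraries. There were 5 contrasts, p-values were adjusted by Benjamini-Hochberg over 12914 genes (at least 99.92% of each library's counts), and the threshold was 0.05. Standard errors were derived from the F statistic. Log2 levels for likeness used a prior count of 2. The fit was also run on counts simulated from its own estimates of spread, which cannot show how it handles outlying libraries. The 7 genes and 17 other lists were chosen with earlier results of these data known. Named genes are the 7, in each list up to 4 with the smallest p in the stimulated and up to 2 in the vehicle genotype comparison, the first 3 markers written for each cell type, the 10 most like the collagens, and Pparg. Fewer are printed than the rule allows. Alternatives were RLE and total-count scaling, no filter, DESeq2 1.42.0, the compared groups alone, a replicate block, and leaving out libraries.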

Additional observations from a re-analysis of the deposited data

Results flagged for a closer look

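The treatment response differed between genotypes, by the test of the interaction itself (edgeR quasi-likelihood, adjusted p under 0.05 over all genes), for 22 named genes. The 7 collagen and stromal genes were not tested in it, since they were chosen on part of it. The other genes given here, except those most like the collagens, were named for small p-values in the stimulated or vehicle genotype comparison. The interaction is the difference between those comparisons, so the calls of these genes are not independent of how they were named. The values are the log2 response to palmitate plus LPS with the knockout label minus that in controls. Among collagen-modifying enzymes it was 0.96 for P4ha1, 0.75 for Plod3 and -1.78 for Lox, where Lox rose with treatment in both genotypes. It was 1.27 ± 0.34 (SE) for the matrix gene Thbs1 (edgeR quasi-likelihood adjusted p = 0.0349). The VEGF receptor gene Kdr had 1.47 ± 0.32 (edgeR adjusted p = 0.0122). Eng, which encodes the TGF-β co-receptor endoglin, had 1.05 ± 0.28 (edgeR adjusted p = 0.0345). Without vehicle control replicate 2, 0 genes of the matrix list were called higher in the interaction, so the Thbs1 call was lost. Of the 2 endothelial calls, 1 remained without vehicle control replicate 1. The PDGF ligands went apart, with -1.67 for Pdgfb and 1.58 for Pdgfc. In the TGF-β list it was 0.61 for Tgfbr2, 1.05 for Ltbp1 and -1.11 for Tgfbi. Among markers of other cells it was -1.18 for S100a8, 0.45 for Csf3r, -0.76 for Lyz2, 1.13 for Mertk, 1.31 for Fcgr1 and -1.28 for Cd14, and the ribosomal protein gene Rpl5 had 0.61. Of the 10 genes most like the collagens, Aebp1 had 0.88, Capn5 0.99, Flrt2 0.51 and Pde7b 0.75; these were chosen by likeness over the same libraries, so their calls are not independent of that choice. Of all tested genes, 8.05% were called in this contrast. The named genes were selected, so their number is not to be read against that share.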

How the results depend on the processing

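For the 7 genes, the stimulated log2 differences kept their sign under every alternative run except that of Lum, which ran between -0.58 and 0.77 as libraries were left out. The genes were chosen on this difference in the same libraries, so the kept signs are no separate support for it. Genes called in vehicle (273 higher, 218 lower) became 465 and 495 without the filter on low counts, 114 and 115 with only the 2 groups compared, and 472 and 377 without replicate 1 of both labelled-knockout groups (chosen after seeing the data). The 7 genes then gave 3, 0 and 2 called higher, and 2 with DESeq2. Stimulated calls (1293 higher, 788 lower) became 841 and 1578 with total-count scaling, 2103 and 1708 with the 2 groups alone, and 1951 and 1537 without both of those libraries. Treatment calls higher became 2676 with the knockout label and 2644 in controls with total-count scaling, against 4356 and 4132, while calls lower were 6570 and 6416, against 4600 and 4480. Interaction calls (607 higher, 432 lower) became 388 and 788 with total-count scaling, 1087 and 788 without the filter, 656 lower with DESeq2 and 913 higher without both of those libraries. In deposited CPM and RPKM, 3 genes peaked in stimulated replicate 1 of the labelled knockout, against 5. The causes were not tested.

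Leaving out each library in turn gave, for vehicle, 129 to 431 higher, 126 to 358 lower and 0 to 2 of the 7 genes higher. For stimulated cells it gave 794 to 2251 higher and 419 to 1829 lower. For the interaction it gave 276 to 1023 higher and 152 to 939 lower. Calls of the 7 genes are given for vehicle alone. Lum in vehicle ran between -0.32 and 0.27, turning to 0.27 without control replicate 1, 0.06 without labelled-knockout replicate 1 and 0.05 without both of those libraries.

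Replicate numbers are shared between groups, but deviations from group means correlated at -0.31 to 0.07 over 18 same-numbered pairs and 1 of 12 libraries matched its own number best, so they were not treated as pairs. With the replicate block, interaction calls were 330 higher and 184 lower, and the calls of the 7 genes in vehicle did not change in number. Depth limits Lum most, with 2 to 37 counts in a library.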
